A study of Mus musculus with 4 samples.

Results

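Paneth cells at the base of the mouse duodenal crypts pack antimicrobial proteins into granules, and 9 granule genes that are not alpha-defensins were followed here through the cells sorted from 4 libraries. The genes were Lyz1, Mmp7, Itln1, Ang4, Mptx1, Mptx2, Clps, Pnliprp2 and Habp2, taken by symbol, and they are 9 of the 31053 genes listed in the deposited matrices. Granule content is made in the endoplasmic reticulum, concentrated in large apical granules and released into the crypt lumen, where it acts on bacteria near the stem cells. Wnt signalling, which Apc restrains as part of the complex that degrades beta-catenin, holds Paneth cells in the crypt and drives part of their gene programme.

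Cells carrying the red fluorescent reporter TOM were sorted from duodenal crypts of tamoxifen-treated mice and sequenced with a 3′ droplet kit that counts unique molecular identifiers (UMIs). The WT group had the genotype Atoh1CreER-T2;R26RTom, and the APC-KO group is labelled Atoh1Cre;Apcfl/fl;R26RTom in the sample labels and Atoh1CreER-T2 with both other alleles in the series text. Each group had 2 libraries, here called replicate 1 and replicate 2. Both groups thus carried the reporter and a Cre driven from Atoh1, a transcription factor of secretory cells. Both received 2 doses of tamoxifen (1 mg/mL) 24 h apart and were harvested 12 h after the second. The sort keeps cells in which the driver was active or that descend from such cells. The labels do not say whether the 2 libraries of a group came from separate animals, so p-values measure only the spread between these libraries. Cells keep the names the authors deposited, 12 in all, among them GP, PANETH-PRE and PANETH; the sources used here do not spell out GP. Names of this kind rest on the expression of the same cells, so levels by name are a description without a test.

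The libraries held 4814 and 3821 kept cells in WT and 356 and 6243 in APC-KO, with 24677647, 21003179, 3009636 and 27285079 UMIs. PANETH and PANETH-PRE together, called the Paneth lineage here, had 228 and 298 cells in WT and 27 and 876 in APC-KO. APC-KO replicate 1 stood apart: it had 16 PANETH, 11 PANETH-PRE and 7 GP cells, and 8 of its 16 PANETH cells carried under 1% of their UMIs in alpha-defensins and under 1% in the 9 genes, against 0 of 106 and 0 of 200 PANETH cells in WT and 14 of 274 in APC-KO replicate 2. The 8 enterocyte markers summed to 1111 CPM (UMIs scaled to 1000000 in the sum) in its PANETH cells, against 133, 124 and 312 in the PANETH cells of WT replicate 1, WT replicate 2 and APC-KO replicate 2. Of the PANETH UMIs, alpha-defensins took 46.1% and 41.8% in WT and 42.8% and 31.9% in APC-KO, so the PANETH sums were rich in defensins in every library. The 8 goblet markers summed to 46299 and 25012 CPM in the Paneth lineage of WT and to 58946 and 75862 CPM in APC-KO, and their part in the genotype values given further on was not tested. Apc itself stood at 87.2 and 77.9 CPM in all kept WT cells and at 88.1 and 88.1 in APC-KO, but counts from the 3′ end need not fall in the deleted part and check nothing. Between 1 and 8 cell barcodes were shared by any pair of libraries.

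All 9 genes were matched in GENCODE vM21 (GRCm38, the mm10 build), and 8 of them have a promoter window in the RefSeq table for GRCm38.p6. Mptx1 and Mptx2, both genes of the mucosal pentraxin family, lie on chromosome 1 (Mptx1 at 174330518 to 174332873 on the plus strand, Mptx2 at 173274382 to 173277777 on the minus strand). The bases just upstream of this pair are printed because the pair is closely related in sequence while its genes differ in the cell types that hold them. The windows are chr1:174330268-174330517 (plus strand, 250 bases) and chr1:173277778-173278006 (minus strand, 229 bases), written 5′ to 3′ with capitals where the bases do not match or have no partner in a global alignment of the pair.
Mptx1: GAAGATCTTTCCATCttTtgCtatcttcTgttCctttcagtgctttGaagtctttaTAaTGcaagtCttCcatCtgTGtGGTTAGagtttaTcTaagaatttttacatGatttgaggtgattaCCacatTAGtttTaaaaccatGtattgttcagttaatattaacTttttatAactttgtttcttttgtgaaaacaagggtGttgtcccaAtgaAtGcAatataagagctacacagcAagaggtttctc
Mptx2: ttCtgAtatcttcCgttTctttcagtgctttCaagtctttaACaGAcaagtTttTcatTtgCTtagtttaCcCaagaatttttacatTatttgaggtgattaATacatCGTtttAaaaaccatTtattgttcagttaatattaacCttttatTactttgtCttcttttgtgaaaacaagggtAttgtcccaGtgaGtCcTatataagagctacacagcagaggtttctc
Of the 251 columns of that alignment 197 were identical, which is 78.5%. The TCF motif CTTTGAT, searched on both strands (ATCAAAG on the other), was in 0 of the 8 member windows. It was in 3.21% of all 32851 windows of the table, each taken at 250 bases. No match says only that these letters are not in the window. The windows of Mptx2, Pnliprp2 and Habp2 were cut to 229, 246 and 200 bases. That of Habp2 lies inside the gene as GENCODE vM21 places it, so the bases upstream of that gene were not searched.

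The bactericidal and lectin genes had their highest level in PANETH cells of all 4 libraries. Lyz1 (lysozyme, which cleaves bacterial cell walls; chromosome 10, 117287797 to 117292868) stood at 36110 and 39228 CPM in WT PANETH cells and at 18538 and 26970 CPM in APC-KO. Itln1 (intelectin, which binds microbial sugars; chromosome 1, 171518122 to 171535294) stood at 53468 and 78875 CPM in WT and at 35248 and 26736 CPM in APC-KO. Ang4 (a ribonuclease of the angiogenin family; chromosome 14, 51763878 to 51773590) stood at 13566 and 14389 CPM in WT and at 11383 and 6539 CPM in APC-KO. For each of these 3 genes both APC-KO libraries lay below both WT libraries.

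Mptx2 followed the same order, with 10450 and 13192 CPM in WT PANETH cells and 8609 and 4880 CPM in APC-KO. The enzymes of lipid digestion, better known from the pancreas, were also highest in PANETH cells. Clps (colipase, the cofactor of pancreatic lipase; chromosome 17, 28558149 to 28560766) stood at 6263 and 7159 CPM in WT and at 4840 and 2978 CPM in APC-KO. Pnliprp2 (a lipase related to pancreatic lipase; chromosome 19, 58759719 to 58777534) stood at 1102 and 1535 CPM in WT and at 332 and 571 CPM in APC-KO. Both were lower in each APC-KO library than in each WT library.

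In CPM the 2 proteases had PANETH-PRE levels at or near those of PANETH in WT. Mmp7 (matrilysin, which cuts the precursors of alpha-defensins into their active form; chromosome 9, 7692090 to 7699585) stood at 4368 and 6124 CPM in WT PANETH cells and at 3288 and 5067 CPM in APC-KO. Habp2 (a serine protease that binds hyaluronan; chromosome 19, 56287137 to 56320822) stood at 125 and 157 CPM in WT and at 111 and 157 CPM in APC-KO. In PANETH cells the groups overlapped for Mmp7, Habp2 and Mptx1 and did not overlap for the other 6. Among all 6942 genes tested in PANETH cells, 2.95% had both APC-KO libraries below both WT libraries in CPM.

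**Figure D1:**
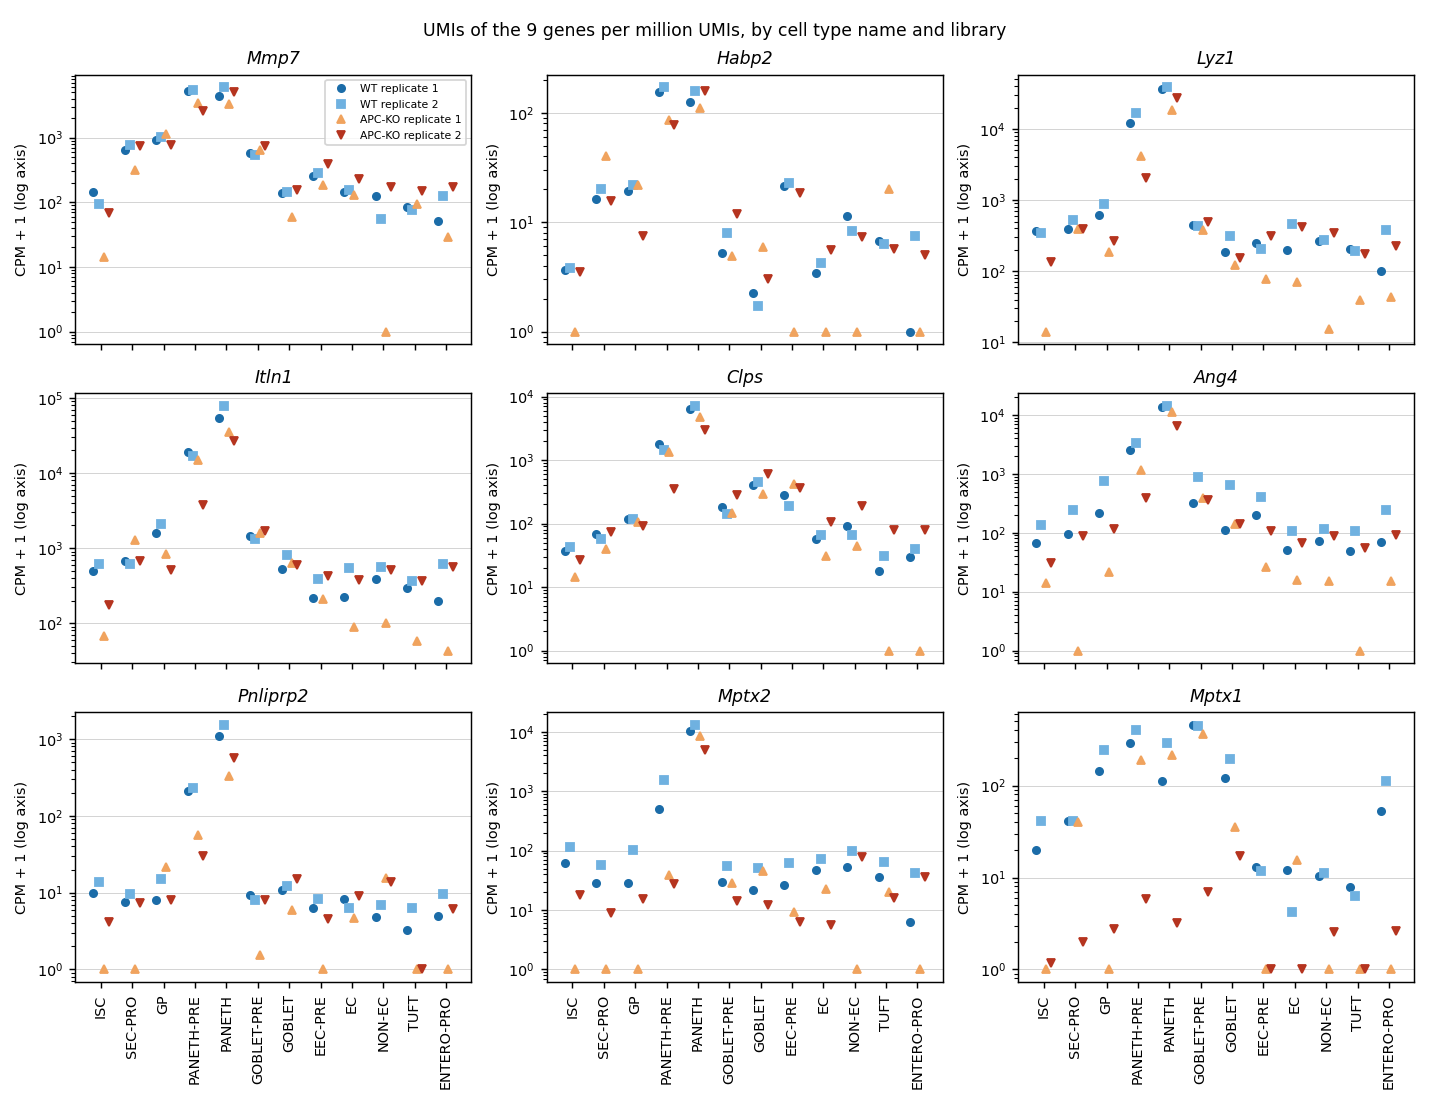
CPM of the 9 genes (y axes, CPM plus 1 on a log scale) in each of the 12 cell type names (x axis), with 1 point per library. The Mptx1 panel is highest in GOBLET-PRE in WT, at 458 and 447 CPM, while the other 8 panels peak at PANETH or PANETH-PRE.

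The genes differed in how near PANETH-PRE cells came to the PANETH level in CPM. CPM is a share of UMIs and not an amount per cell. The median PANETH cell held 12643.5 and 10371.5 UMIs in WT and 3552 and 5954 in APC-KO. For PANETH-PRE cells the medians were 4895 and 4378.5 in WT and 9242 and 4002 in APC-KO. With each PANETH-PRE sum expressed as a percent of PANETH in the same library, the order was alike between libraries at both ends. Mmp7 in PANETH-PRE cells was at 120% and 89.5% of PANETH in WT and at 103% and 51.6% in APC-KO. Habp2 was at 122% and 109% in WT and at 76.0% and 48.6% in APC-KO. Mptx1, described apart, was at 259%, 138%, 86.6% and 220%. The lowest was Mptx2, the last of 9 in all 4 libraries, at 4.85% and 11.7% in WT and at 0.433% and 0.542% in APC-KO.

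Between these ends lay the other Paneth granule genes. Lyz1 in PANETH-PRE cells was at 33.3% and 43.2% of PANETH in WT and at 22.5% and 7.68% in APC-KO. Itln1 was at 35.8% and 21.1% in WT and at 42.1% and 13.9% in APC-KO. Clps was at 28.6% and 20.04% in WT and at 27.4% and 11.8% in APC-KO. These 3 genes changed places between libraries, so no order among them can be read. Ang4, at 18.6% and 22.9% in WT and 10.1% and 5.85% in APC-KO, and Pnliprp2, at 19.1% and 14.8% in WT and 16.9% and 5.15% in APC-KO, were lower than Lyz1 in every library.

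In GP cells the proteases stood closest to their PANETH level, Mptx1 set aside. Mmp7 in GP cells was at 21.4% and 17.0% of PANETH in WT and at 34.9% and 15.4% in APC-KO, and Habp2 at 14.6% and 13.3% in WT and 18.9% and 4.18% in APC-KO. The APC-KO replicate 1 values rest on 7 cells, with 55 UMIs of Mmp7 and 1 of Habp2. Lyz1 in GP cells was at 1.73% and 2.23% in WT and at 1.01% and 1.00% in APC-KO. Mptx2 was at 0.266% and 0.764% in WT and at 0.293% in APC-KO replicate 2, with no UMI in APC-KO replicate 1, where 3 UMIs would be 62.6 CPM. SEC-PRO cells had Mmp7 at 14.5%, 12.6%, 9.46% and 14.9% of PANETH in the 2 WT and then the 2 APC-KO libraries. The value of APC-KO replicate 1 rests on 5 SEC-PRO cells.

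**Figure D2:**
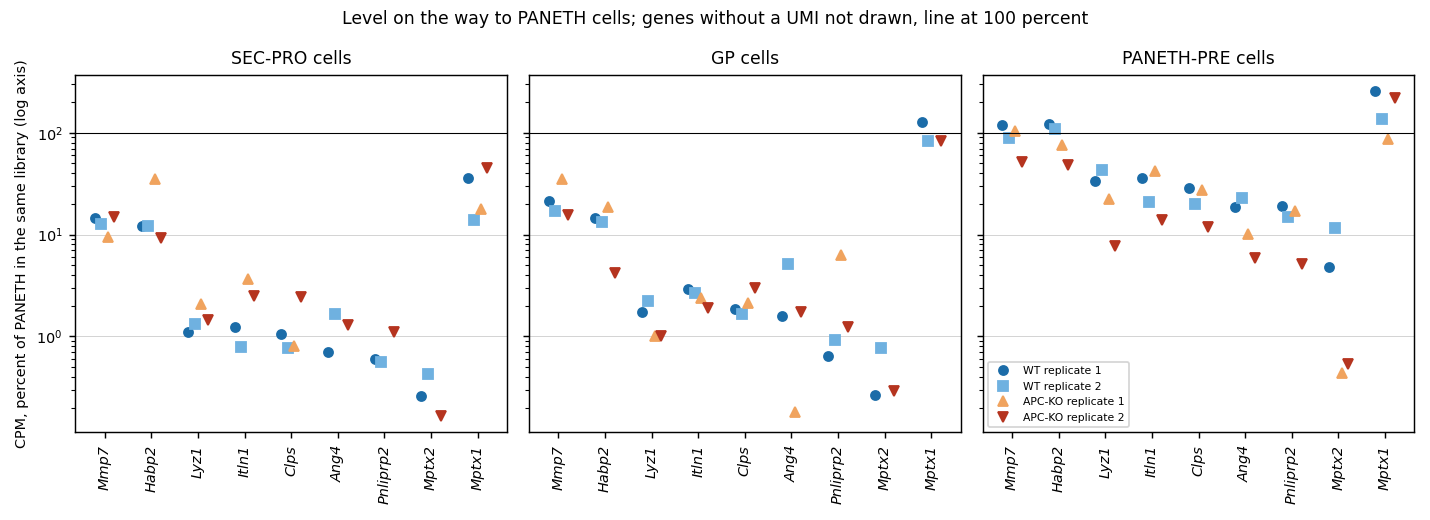
CPM in SEC-PRO, GP and PANETH-PRE cells as a percent of PANETH in the same library (y axis, log scale) for the 9 genes (x axis), with 1 point per library. Mmp7 and Habp2 sit highest of the 8 genes other than Mptx1, and Mptx2 sits lowest in the PANETH-PRE panel, between 0.433% and 11.7%.

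Detection in single cells followed the levels. To compare cells of unequal depth, each cell was thinned to 2000 UMIs, which left out 161, 50, 10 and 292 shallower cells per library. In WT PANETH-PRE cells Mmp7 had a UMI in 120 of 120 and 98 of 98 cells, and Mptx2 in 17 of 120 and 16 of 98. No WT PANETH-PRE cell had Mptx2 without Mmp7. In APC-KO replicate 2, 19 PANETH-PRE cells had both, 494 had Mmp7 alone and 2 had Mptx2 alone. Lyz1 and Mptx2 gave a like picture, with 80 and 63 WT PANETH-PRE cells that had Lyz1 alone and 1 and 0 that had Mptx2 alone. Detection rises with the level of a gene, so these counts restate the levels cell by cell. As a share of cells that should lack the genes, TUFT cells had a Lyz1 UMI in 20.7% and 26.1% of thinned WT cells and a Mptx2 UMI in 7.98% and 8.40%.

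Most WT PANETH cells carried nearly the whole set. In PANETH cells the median cell had 7 of the 9 genes in both WT libraries, 4 in APC-KO replicate 1 and 6 in APC-KO replicate 2. In PANETH-PRE cells it had 4 and 5 in WT and 5 and 3 in APC-KO. The 9 genes together took a median of 12.6% and 15.9% of the UMIs of a WT PANETH cell and 0.475% and 5.80% in APC-KO. In PANETH-PRE cells the medians were 2.35% and 1.85% in WT and 1.80% and 0.650% in APC-KO. PANETH-PRE cells spread widely in WT, with single cells from 0.150% to 17.9% in replicate 1 and from 0.20% to 28.9% in replicate 2.

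**Figure D3:**
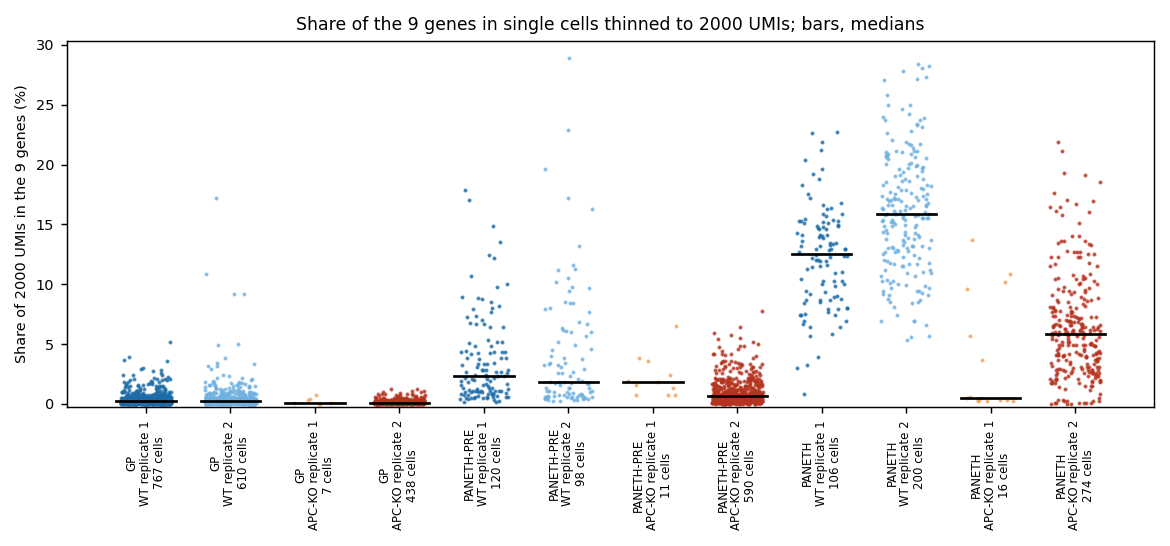
Share of a cell's 2000 thinned UMIs in the 9 genes (y axis, percent) in GP, PANETH-PRE and PANETH cells of each library (x axis), with 1 point per cell and a bar at the median. WT PANETH cells center on 12.6% and 15.9%, and in APC-KO replicate 1 10 of the 16 PANETH cells lie under 1%.

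Mptx2 in PANETH cells of APC-KO replicate 2 was patchy. It had a UMI in 98 of 274 thinned cells (35.8%), against 91.5% and 96.5% of WT PANETH cells, and the cells that had it held a median of 7 UMIs (mean 17.6, highest 115). In WT the medians of such cells were 16 and 20 UMIs (means 21.5 and 25.8), so the typical cell with Mptx2 also held fewer UMIs in this APC-KO library. Pnliprp2 was found in 43.8% of these APC-KO cells against 78.3% and 87.5% in WT, and Ang4 in 73.7% against 99.1% and 99.5%. Lyz1 was found in 96.0% against 100% and 100%. In the 16 PANETH cells of APC-KO replicate 1 the shares were 62.5% for Mptx2, 12.5% for Pnliprp2, 81.3% for Ang4 and 75% for Lyz1.

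Mptx1 went against the label of a Paneth granule gene. Its highest WT level was in GOBLET-PRE cells, at 458 and 447 CPM, against 287 and 398 in PANETH-PRE and 111 and 289 in PANETH cells. It was also present in WT GP cells at 142 and 241 CPM and in GOBLET cells at 118 and 195 CPM. In APC-KO replicate 1 the GOBLET-PRE level was 364 CPM, close to WT, with 187 CPM in PANETH-PRE and 216 in PANETH. In APC-KO replicate 2 it was at 16.3 CPM or less in every cell type, with 27 UMIs or 6.0 CPM in GOBLET-PRE, 4.8 CPM in PANETH-PRE and 2.2 CPM in PANETH. Over all kept cells Mptx1 stood at 175 and 246 CPM in WT, 239 CPM in APC-KO replicate 1 and 2.7 CPM in APC-KO replicate 2, so the APC-KO libraries differed from each other more than APC-KO replicate 1 differed from WT. Barcodes with 1 to 50 UMIs that are not kept cells showed the same, with 146, 200, 134 and 22.1 CPM in that order.

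Few cells had a Mptx1 UMI. In thinned WT GOBLET-PRE cells 12.6% and 14.8% had a UMI, against 11.7% and 8.16% of PANETH-PRE and 5.66% and 13.5% of PANETH cells. In WT PANETH-PRE cells Mptx1 and Mptx2 were together in 3 and 2 cells, Mptx1 alone in 11 and 6 and Mptx2 alone in 14 and 14. The pair shared up to 112 bases in a row of transcript, but 30 within the last 300 bases, where 3′ counts fall. Reads could also be shared by Lyz1 and Lyz2 (a run of 118 bases), and Lyz2, the lysozyme of macrophages, had 7, 6, 1 and 6 UMIs in the Paneth lineage. Ang5 and Ang6 had 0 UMIs in all libraries. Ang, another relative of Ang4, had 589, 702, 100 and 1445 UMIs in the Paneth lineage. It shared up to 31 bases in a row with Ang4, and 23 within the last 300 bases.

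Over the 39 sums of a cell type in a library with at least 20 cells, genes were ranked by likeness to each member. Likeness was the Pearson r of log2(CPM + 10), among 3055 genes with a mean of at least 20 CPM over the PANETH sums. The candidates were thus chosen by their level in PANETH cells. Among them, alpha-defensins were in the 3 nearest genes of every member except Mmp7 and Mptx1. Lyz1 was nearest to Defa17 (r = 0.97), Defa24 and Samd5. Itln1 was nearest to Defa24 (0.96), Defa3 and Defa17, Pnliprp2 to Defa3 (0.97), AY761184 and Defa30, and Mptx2 to AY761184 (0.96), Defa30 and Defa26. Clps was nearest to Defa24 (0.86), Defa3 and Copz2, and Ang4 to Copz2 (0.89), Defa24 and Defa3. Habp2 was nearest to Samd5 (0.94), Defa17 and Fzd9, the last a Wnt receptor. Mmp7 was nearest to Bhlha15 (0.94), a transcription factor of secretory cells, then to Rnase1 and Pycr1. Mptx1 was nearest to Slc35b1 (0.73), Kdelr3 and Edem2, the last 2 genes of the endoplasmic reticulum, and its r with the other 8 members ran from 0.27 to 0.57. The sums share libraries and depth, so these values describe likeness and carry no p.

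Outside the Paneth lineage the members were seen at low levels in most cell types. Droplets also take up free RNA, so each level was set against that in barcodes with 1 to 50 UMIs, called the profile here. In ISC, EC, NON-EC, TUFT and ENTERO-PRO cells, 16 sums with at least 20 cells, no member exceeded its level in that profile. Lyz1 ran from 5.12% to 28.2% of the profile there, Itln1 from 4.99% to 24.2%, Ang4 from 2.98% to 17.9% and Mptx2 from 1.14% to 31.0%. Mmp7 ran from 7.23% to 45.6%, and Clps from 4.56% to 71.6%. In WT TUFT cells Lyz1 was at 10.8% and 5.12% of the profile, Itln1 at 8.86% and 4.99% and Mptx2 at 7.64% and 5.08%.

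Mmp7, Habp2, Clps and Mptx1 exceeded the profile in some secretory types, where Lyz1 did not. Mmp7 in GP cells was at 196% and 140% of the profile in WT and at 408% and 138% in APC-KO, while Lyz1 in the same cells was at 33.3% and 23.7% in WT and 25.4% and 18.1% in APC-KO. In SEC-PRO cells Mmp7 was at 133%, 103.9%, 111% and 133%. The APC-KO replicate 1 values rest on 7 GP and 5 SEC-PRO cells. Habp2, with 11 to 19 UMIs in the profiles, was at 134% and 148% in WT GP cells. Mptx1 in GOBLET-PRE cells was at 313% and 223% in WT, 272% in APC-KO replicate 1 and 26.9% in APC-KO replicate 2. A level under the profile does not show that the UMIs of a gene are free RNA. The highest thinned GP cell held 49 and 84 UMIs of Lyz1 in WT and 2 and 10 in APC-KO. For Itln1 the highest values were 59 and 192 in WT and 4 and 21 in APC-KO. The median WT GP cell with a UMI held 1 and 2 UMIs of Lyz1 and 2 and 2 of Itln1. The part of free RNA in these levels was not tested.

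Clps also stood high outside the Paneth lineage. In GOBLET cells it stood at 402 and 445 CPM in WT and at 294 and 598 CPM in APC-KO, which is 125%, 67.5%, 167% and 227% of the profile. In EEC-PRE cells it stood at 277 and 187 CPM in WT and at 421 and 355 CPM in APC-KO, or 86.0%, 28.4%, 239% and 135% of the profile. The EEC-PRE values of APC-KO replicate 1 rest on 15 cells. WT replicate 2 was under the profile in both GOBLET and EEC-PRE cells. Lyz1 in GOBLET cells was at 9.84%, 8.43%, 16.6% and 10.3% of the profile, so the ratio of Clps to Lyz1 in GOBLET cells differed from that in the profile in all 4 libraries.

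**Figure D4:**
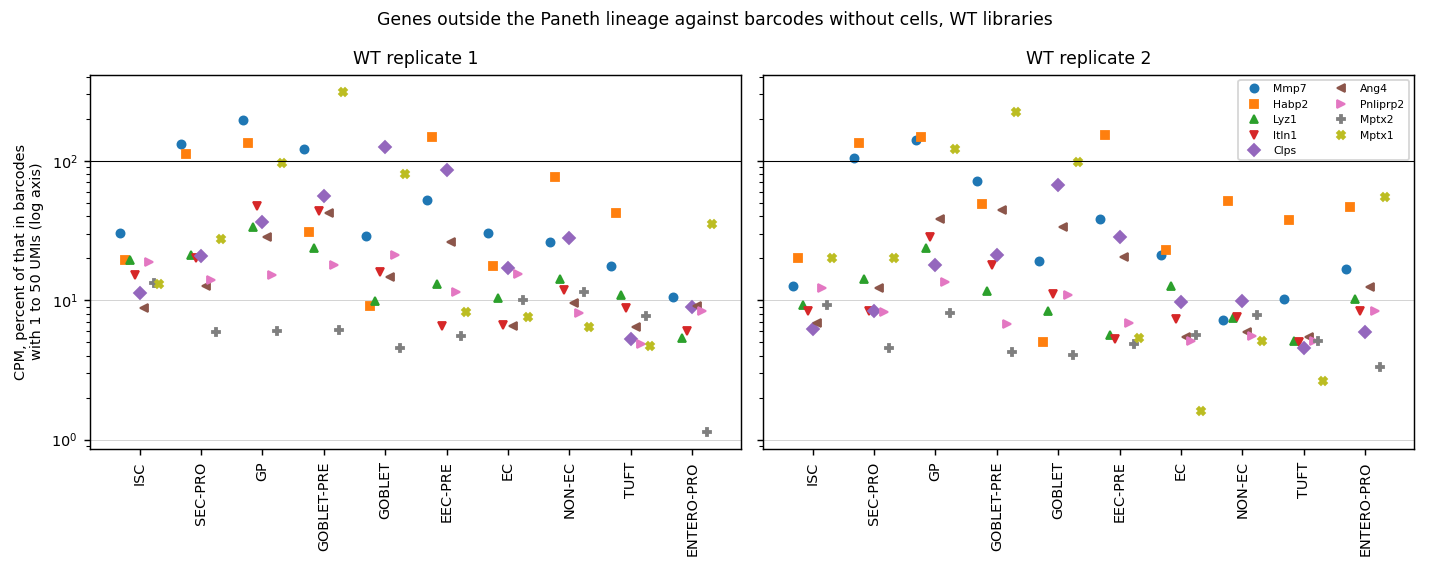
CPM of the 9 genes in the 10 cell types outside the Paneth lineage (x axis) as a percent of their CPM in barcodes with 1 to 50 UMIs (y axis, log scale), for the 2 WT libraries. Points above the line at 100% are Mmp7 in SEC-PRO and GP, Habp2 in SEC-PRO, GP and EEC-PRE, Mptx1 in GOBLET-PRE and, in 1 library each, Mmp7 in GOBLET-PRE, Mptx1 in GP and Clps in GOBLET, from 103.9% to 313%.

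The libraries were then compared between genotypes. In the Paneth lineage all 9 had a negative log2 fold change of APC-KO over WT, against 49.5% of the 8599 genes tested, with a median of -1.70 against 0.00 for all genes. Pnliprp2 alone passed the test, where 0.419% of genes were called lower. Pnliprp2 stood at 840 and 1307 CPM in WT and at 229 and 248 CPM in APC-KO, or -2.69 on the log2 scale (SE 0.37, adjusted p = 0.0106, edgeR). The groups were far apart relative to the spread within each. The call was lost without either WT library, at an adjusted p of 0.152 without replicate 1 and 0.818 without replicate 2 (edgeR).

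The other 8 genes did not pass. Lyz1 stood at 29021 and 35342 CPM in WT and at 13197 and 12134 CPM in APC-KO (log2 fold change -1.82, SE 0.52, adjusted p = 0.130, edgeR). Itln1 stood at 43357 and 68030 CPM in WT and at 27660 and 13023 CPM in APC-KO (-1.85, SE 0.65, adjusted p = 0.210, edgeR). In the summed lineage the APC-KO libraries agreed for Lyz1 and differed for Itln1, as they did for Ang4, Clps and Mptx2. For Lyz1 they differed in PANETH cells alone, at 18538 CPM in replicate 1 and 26970 CPM in replicate 2. In PANETH-PRE cells alone Lyz1 was higher in replicate 1 of APC-KO. Ang4 stood at 10313 and 12456 CPM in WT and at 7575 and 2870 CPM in APC-KO. Clps stood at 4946 and 6161 CPM in WT and at 3532 and 1412 CPM in APC-KO. Mptx2 stood at 7522 and 11160 CPM in WT and at 5420 and 1988 CPM in APC-KO. Their log2 fold changes were -1.50 (SE 0.60), -1.55 (SE 0.56) and -1.70 (SE 0.61), with adjusted p between 0.216 and 0.270 (edgeR).

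The smallest fold changes were those of the proteases. Mmp7 stood at 4619 and 6012 CPM in WT and at 3328 and 3605 CPM in APC-KO (log2 fold change -1.12, SE 0.41, adjusted p = 0.225, edgeR). Habp2 stood at 133 and 160 CPM in WT and at 101 and 109 CPM in APC-KO (-1.06, SE 0.25, adjusted p = 0.0818, edgeR). Mptx1, at 163 and 308 CPM in WT and at 205 and 3.7 CPM in APC-KO, had -2.04 with a standard error of 1.23 (adjusted p = 0.478, edgeR), and its groups overlapped. The other 8 had both APC-KO libraries below both WT libraries in CPM, which held for 2.72% of all genes tested, while 48.5% had both above. The CPM of a sum add up to a constant, whereas the TMM scaling of edgeR sets the bulk of genes near 0, so its fold changes were larger than the ratios of the CPM. Leaving the alpha-defensins out of the fit gave a median of -1.70 over the 9 genes.

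The make-up of the Paneth lineage sums differed between libraries. The share of Paneth lineage UMIs that came from PANETH-PRE cells was 29.5% and 17.4% in WT and 37.2% and 59.6% in APC-KO. Of the lineage cells, PANETH-PRE made up 53.5% and 32.9% in WT and 40.7% and 68.7% in APC-KO. By cell number the groups thus overlapped. A sum cannot tell fewer mature cells from less RNA per cell. Without APC-KO replicate 1 the fit called 8 of the 9 genes lower, all but Mmp7 (adjusted p = 0.0731, edgeR), where 3.0% of genes were called lower, and the median log2 fold change of the 9 was -2.82. Without APC-KO replicate 2 it called Pnliprp2 alone, where 0.293% of genes were called lower, and the median was -0.91. The APC-KO libraries thus gave fold changes of different size. With cells thinned to 2000 UMIs it called 6, namely Lyz1, Itln1, Ang4, Mptx2, Clps and Pnliprp2, against 0.743% of genes. With no filter on low counts it also called 8, again all but Mmp7, against 1.74% of genes. DESeq2 called Lyz1, Mmp7 and Pnliprp2, against 2.35% of the genes to which it gave an adjusted p.

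The lineage was also split into its named cell types. In PANETH-PRE cells alone all 9 had both APC-KO libraries below both WT libraries in CPM, against 16.6% of genes tested. Of the 9, 6 fell in the edgeR fit, where 0.754% of genes were called lower: Mptx2 (-5.21, adjusted p = 3.66e-08), Mptx1 (-3.82, adjusted p = 0.0112), Pnliprp2 (-2.84, adjusted p = 1.93e-06), Lyz1 (-2.15, adjusted p = 0.00710), Ang4 (-1.91, adjusted p = 0.0145) and Habp2 (-1.13, adjusted p = 0.0341). In PANETH cells alone 1 fell, where 0.821% were called lower: Pnliprp2 (-2.12, adjusted p = 0.00800, edgeR). Mptx2 had -1.28 in PANETH cells (adjusted p = 0.244, edgeR). The difference between PANETH-PRE and PANETH in the genotype effect was not tested.

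Mptx2 in PANETH-PRE cells had 312 and 673 UMIs in WT, or 506 and 1540 CPM, and 4 and 72 UMIs in APC-KO, or 37.3 and 26.5 CPM. Few cells made up the WT level: among thinned cells 17 of 120 and 16 of 98 had a UMI, with a median of 1 UMI in such cells. A single cell held 28 of the 70 thinned UMIs in replicate 1 and 87 of the 195 in replicate 2, so the fold change is that of the sums and not of the typical PANETH-PRE cell. For Mptx1 a single WT PANETH-PRE cell held 39 of the 81 thinned UMIs in replicate 1 and 56 of the 79 in replicate 2. Mptx1 was also scarce in every cell type of APC-KO replicate 2, as given above. Lyz1 stood at 12039 and 16942 CPM in WT and at 4179 and 2072 CPM in APC-KO. As a percent of PANETH in the same library, 4 genes (Lyz1, Ang4, Mptx2 and Habp2) had both APC-KO libraries below both WT libraries and 5 overlapped. The same held for 47.8% of the 7074 genes with a UMI in every PANETH sum, so the count of 4 is near that of genes in general. With 2 libraries against 2, an exact two-sided permutation test of 1 value cannot give a p below 0.333.

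In the goblet lineage (GOBLET and GOBLET-PRE summed) 0 of the 9 genes passed by edgeR, with 0 at an unadjusted p under 0.05 and 0 called by DESeq2, where edgeR called 0.0191% of 10445 genes. The members' log2 fold changes ran from -1.23 for Mptx1 to 0.68 for Habp2, with a median of 0.01. With no filter on low counts Mptx1 and Mptx2 were called lower (adjusted p = 1.52e-06 and 0.000118, edgeR). That setting called 112 of 16096 genes lower. Lyz1 stood at 419 and 408 CPM in WT and at 357 and 428 CPM in APC-KO, and Mmp7 at 533 and 469 CPM in WT and at 586 and 643 CPM in APC-KO. Without APC-KO replicate 1 Mptx1 was called at -5.67 (adjusted p = 0.00257, edgeR), where 0.0181% of genes were called lower, and without APC-KO replicate 2 it was at -0.21. In all kept cells together 0% of 13345 genes were called by edgeR, with 495 at an unadjusted p under 0.05 and 23 called by DESeq2. Pnliprp2 there had -1.69 and Mptx1 -0.67. Without APC-KO replicate 1 Mptx1 alone of the members was called, at -6.28 (adjusted p = 0.00156, edgeR), with 1.30% of genes called lower.

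The genotype difference itself differed between lineages for 8 of the 9 genes. The fit of both lineages with library as a block gave the log2 fold change in the Paneth lineage minus that in the goblet lineage, and 1.52% of 10265 genes were called lower in it. All 9 members were below 0, against 50.2% of genes. Pnliprp2 (-2.44, SE 0.38, adjusted p = 1.03e-05, edgeR), Itln1 (-2.35, SE 0.36, adjusted p = 8.87e-06, edgeR) and Clps (-2.24, SE 0.38, adjusted p = 6.13e-05, edgeR) had the largest differences. Habp2 (-1.94), Lyz1 (-1.90), Mmp7 (-1.54), Ang4 (-1.38) and Mptx2 (-1.14) followed, with adjusted p from 1.77e-05 to 0.0210 (edgeR). For Pnliprp2 and Habp2 the goblet side rested on low levels. Goblet lineage means were 8.16 CPM in WT and 4.68 CPM in APC-KO for Pnliprp2, and 4.86 and 6.64 CPM for Habp2. Mptx1 had -0.45 (adjusted p = 0.544, edgeR): it was lower in both lineages of APC-KO replicate 2.

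In the goblet lineage Lyz1, Itln1, Ang4, Mptx2 and Pnliprp2 lay below the free RNA profile in all 4 libraries, and the part of free RNA in the difference was not tested.

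The calls depended on libraries and cell types. Without APC-KO replicate 2 the fit called 3 of the 9, namely Itln1, Lyz1 and Mmp7 (adjusted p = 0.0323, 0.0411 and 0.0239, edgeR), where 0.257% of genes were called lower. The median difference of the 9 was then -0.71, against -1.90 with all libraries, and Pnliprp2 turned to 0.39. Ang4 and Mptx2 were not called without WT replicate 1, and Mptx2 was not called without WT replicate 2 (adjusted p = 0.653, 0.398 and 0.0537, edgeR). DESeq2 called 4 (Lyz1, Itln1, Mmp7 and Habp2), against 0.677% of the genes to which it gave an adjusted p. PANETH-PRE against GOBLET-PRE cells alone called the same 8, against 0.665% of genes, and PANETH against GOBLET cells alone called 0 members, with 2 at an unadjusted p under 0.05, against 0.272% of genes, with a median of -0.56. With the profile subtracted at 5% of the UMIs of each sum 8 were called, against 1.69% of genes.

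**Figure D5:**
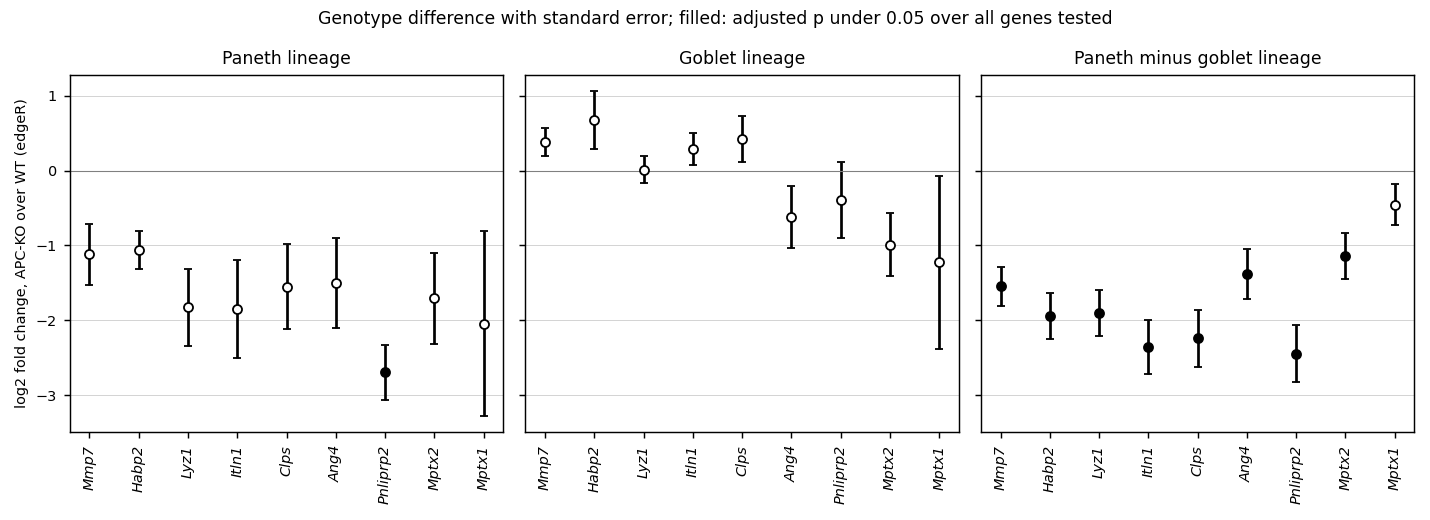
Log2 fold change of APC-KO over WT (y axis) for the 9 genes (x axis) in the Paneth lineage, in the goblet lineage and for the difference of both, with bars of 1 standard error; filled points have an edgeR adjusted p under 0.05. All points lie below 0 in the left and right panels, from -2.69 to -1.06 and from -2.44 to -0.45.

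Other genes of the Paneth programme were counted by list. Over all 8599 genes tested in the Paneth lineage 0.419% were called lower and 0.244% higher. Of 22 alpha-defensin genes 16 were tested in the Paneth lineage and 5 were called (3 lower, 2 higher), with a median log2 fold change of -1.26. Defa24 had -0.999 (adjusted p = 0.544, edgeR), and Defa30 had -1.37. Of 14 other secreted products 7 were tested and 1 was called, Dmbt1, which was higher; it was named after its value was seen. Reg4, a lectin, had -1.45 (adjusted p = 0.0893, edgeR). By edgeR 0 of 15 regulators, 0 of 6 tested niche ligands and 0 of 7 tested granule transport genes were called, with 3, 1 and 2 at an unadjusted p under 0.05. Sox9, a transcription factor Paneth cells need, had -0.27, and Wnt3, a ligand they supply to stem cells, had -0.78. Rab3d, a granule GTPase, had -0.58.

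In the difference between lineages 5 of 17 alpha-defensins, 5 of 15 regulators, 3 of 8 granule transport genes and 1 of 6 niche ligands were called, all lower in the edgeR fit. Over all 10265 genes tested in it 1.52% were called lower and 0.740% higher. Of the 9 other secreted products 3 were called lower and 1 higher. Among the called genes were Guca2b (-1.67), a guanylin peptide, Reg4 (-1.62), Nupr1 (-1.92), a stress-response regulator, Wnt3 (-1.99) and Sox9 (-0.73).

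Markers of pancreatic acinar cells and of macrophages were low in the Paneth lineage, unlike the goblet markers given above. The 13 acinar markers summed to between 14.7 and 27.8 CPM there, with 2 to 4 of 13 detected. Pnlip, Cpa1, Cpb1, Prss2, Try4, Try5, Cela2a and Amy2a5, enzymes that pancreatic acinar cells make with Clps and Pnliprp2, had 0 UMIs in it. The 5 macrophage markers summed to between 3.07 and 3.59 CPM, and Csf1r, Adgre1 and C1qa had 0 UMIs in it.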

How the data were processed

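The submitters' processing notes name Cell Ranger 3.0.2, STAR and the mm10 build. The authors deposited raw UMI counts per gene and barcode, with 6794880 barcodes and 31053 genes in each of 4 libraries, and per-cell tables of the kept cells, with a deposited percent of mitochondrial UMIs and a cell type name. How cells were filtered, named or cleared of doublets is not given in the sources used here, and no doublet caller was run. The 12 deposited names and library labels were used as they stand.

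UMI counts of the kept cells were summed per cell type and library. CPM scales each sum to 1000000 UMIs. Genotypes were compared with edgeR 4.0.16 (R 4.3.3): TMM scaling, filterByExpr and a quasi-likelihood test on the summed counts. P-values were adjusted by Benjamini-Hochberg over all genes tested, with a threshold of 0.05. The fitting code was tested on simulated data with a fixed dispersion and large known changes. That test checks the code and not the error rate in these libraries. Standard errors were taken from the log2 fold change and the F statistic. DESeq2 1.42.0 was an alternative, as were other filters, depth, libraries and cell types. The members and the lists of other genes were chosen with earlier results of these data known. Genes were named by rule: the members, Apc, the 3 genes most like each member, close relatives, and up to 3 genes of each list by level. Among 30934 of 31053 gene IDs matched to GENCODE vM21, all members had coordinates.

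Each kept library held between 3009636 and 27285079 UMIs. The numbers of UMIs limit precision only for sums of few counts, and intervals and floors (3 counts) cover counting error only. The correlation of deviations between same-numbered libraries was 0.00 in the Paneth lineage, -0.02 in the goblet lineage and -0.25 in all cells. No label says that a number pairs libraries.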

Additional observations from a re-analysis of the deposited data

Results flagged for a closer look

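For 8 of the 9 genes the genotype difference in the Paneth lineage differed from that in the goblet lineage by the edgeR test of the difference itself. In that test 1.52% of 10265 genes were called lower. The log2 differences were -2.44 for Pnliprp2, -2.35 for Itln1, -2.24 for Clps, -1.94 for Habp2, -1.90 for Lyz1, -1.54 for Mmp7, -1.38 for Ang4 and -1.14 for Mptx2. Every library gave a sum to both lineages. Goblet lineage means were low for Pnliprp2, at 8.16 CPM in WT and 4.68 CPM in APC-KO, and for Habp2, at 4.86 and 6.64 CPM. The goblet lineage level was below that in barcodes with 1 to 50 UMIs in all 4 libraries for Lyz1, Itln1, Ang4, Mptx2 and Pnliprp2. The part of free RNA in the differences was not tested. The median difference of the 9 genes was -1.90. Without APC-KO replicate 2 it was -0.71, with Pnliprp2 at 0.39. For PANETH against GOBLET cells alone it was -0.56. That fit called 0 of the 9 genes by edgeR, with 2 at an unadjusted p under 0.05, where 0.272% of genes were called lower.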

How the results depend on the processing

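Counts of called genes moved more than the members' directions. In the Paneth lineage, 57 genes were called; the count was 477 with no filter, 0 to 461 with 1 library left out, 124 with the free RNA profile subtracted and 98 with PANETH cells alone. In the goblet lineage, 2 became 35 by DESeq2, 324 with no filter, 7 to 56 with 1 library left out and 0 with the free RNA profile subtracted. In all kept cells, 0 became 23 by DESeq2, 21 with no filter and 0 to 483 with 1 library left out. For the difference between lineages, 232 became 33 by DESeq2, 58 to 364 with 1 library left out, 74 with thinned cells, and, in fits added after seeing the data, 49 with PANETH against GOBLET cells and 91 with PANETH-PRE against GOBLET-PRE cells. The replicate block gave 124, 27 and 4 calls in the Paneth lineage, the goblet lineage and all cells and changed no call of the 9 genes; the numbers pair nothing by the labels (correlation of deviations 0.00, -0.02 and -0.25). Crossed numbers, added after seeing the data, gave 49, 2 and 1.

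In the Paneth lineage all 9 genes stayed below 0 under all 15 alternatives run. In the goblet lineage several log2 fold changes turned sign with 1 library left out: Lyz1 (-0.10 to 0.10), Ang4 (-1.18 to 0.26), Clps (-0.19 to 0.83), Pnliprp2 (-2.88 to 0.089) and Habp2 (-0.16 to 0.97). Lyz1 turned to -0.046 without WT replicate 2, to -0.023 with no filter and to -0.14 with thinned cells. With free RNA subtracted, Pnliprp2 turned to 0.060 and Mptx2 to 1.72. In all cells Mmp7 (-0.40 to 0.13), Mptx1 (-6.28 to 0.38) and Habp2 (-0.62 to 0.096) turned with 1 library left out, and Habp2 stood at 0.068 without APC-KO replicate 1 and at 0.067 with thinned cells. Between lineages Mptx1 (-1.07 to 0.043) and Pnliprp2 (-2.997 to 0.39) turned, the latter without APC-KO replicate 2, where the APC-KO goblet lineage held 2 UMIs of it. The cause of these changes was not tested. A setting without 1 library leaves that group with a single sample, assumed to vary like the other group. The 27 Paneth lineage cells of APC-KO replicate 1 limit every comparison.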
